A study of Rattus norvegicus with 56 samples.

Results

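Fetal rat myocardium whose dams had received dimethadione (DMO) was compared, whatever the state of the ventricular septum, with myocardium of control fetuses. The 7 samples of the VSD group and the 7 samples of the non-VSD group were pooled as 14 DMO-exposed samples and set against the 7 NC samples, 21 of the 56 samples of the series. All fetuses were Sprague-Dawley rats collected on embryonic day 19. Dams of both DMO groups received DMO by gavage in mid-gestation, and NC dams received distilled water in its place. The labels VSD and non-VSD say whether a DMO-exposed heart had a ventricular septal defect, an opening in the wall between its ventricles. The authors left out VSD hearts whose great vessels were malformed and DMO fetuses with outward anomalies, and RNA came from paraffin (wax) blocks of the washed heart. The litter of each fetus is not given, so p-values measure the spread between these samples, and fetuses of 1 dam cannot be told from fetuses of several.

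Dimethadione is the active metabolite of the anticonvulsant trimethadione, and maternal doses of it cause septal defects in rat fetuses. A microRNA is a short RNA cut from a hairpin precursor. A single strand, the 5p or the 3p arm, is loaded into an Argonaute protein and lowers the output of messenger RNAs that pair with its seed, the bases 2 to 8. MicroRNAs with the same seed share most of their predicted targets, and those of 1 precursor transcript are made together. Heart muscle is known for miR-1 and miR-133, its myosin genes for miR-208 and miR-499, its vessels for miR-126 and miR-143, and the blood inside it for miR-144, miR-451 and miR-486.

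Reads per mature microRNA were counted by the authors for 661 microRNAs. Totals lay between 4366457 and 9371130 reads in the NC samples and between 1694811 and 9182491 in the DMO-exposed samples (medians 6876536 and 7395258). Heart muscle microRNAs were found in every sample, at widely varying levels. The summed level of the cardiac and skeletal muscle list (miR-1, miR-1b, miR-133a, miR-133b and miR-206) was 13112 to 238941 CPM in the NC samples and 13344 to 107585 CPM in the DMO-exposed samples, where CPM are counts scaled to a total of 1e+06 after TMM scaling. Replicate 2 of the NC group stood apart, with a median correlation of 0.906 with the other NC samples on the log2 scale, against 0.958 to 0.972 for the others. It had the lowest red blood cell sum of the 21 samples, 2653 CPM, the lowest muscle sum, 13112 CPM, and a high epithelial sum, 14717 CPM. VSD replicate 1 had red blood cell, muscle and epithelial sums of 3436, 13344 and 15687 CPM. Epithelial sums were 12761 and 12092 CPM in VSD replicates 4 and 5. In NC replicate 2 and VSD replicate 1 the epithelial sum was above the muscle sum. Sums of miR-208 and miR-499 were lowest in NC replicate 2, VSD replicate 4 and VSD replicate 1, at 376, 525 and 1045 CPM. Calls that were lost without NC replicate 2 are named below. Several values are given with and without it, and these VSD replicates were kept in both. Where it held the NC level nearest to the exposed samples, leaving it out widens the difference and is no separate check.

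The sequences below are those of RefSeq on the rat build GRCr8, with the seed in capitals, for the microRNAs that the results turn on. The first set was higher in the DMO-exposed myocardium and the next 2 sets were lower. The last set shows the muscle microRNAs that share 1 seed, of which miR-206-3p was lower.
miR-146a-5p: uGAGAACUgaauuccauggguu
miR-218a-5p: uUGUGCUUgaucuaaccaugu
miR-29b-3p: uAGCACCAuuugaaaucaguguu
miR-190a-5p: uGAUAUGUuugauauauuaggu
miR-466c-5p: uGUGAUGUguguauguacaug
miR-497-5p: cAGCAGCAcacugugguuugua
miR-130a-3p: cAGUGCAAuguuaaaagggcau
miR-708-5p: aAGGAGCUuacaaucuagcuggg
miR-126a-3p: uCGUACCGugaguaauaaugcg
miR-125a-5p: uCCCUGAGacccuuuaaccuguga

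The second set holds lower microRNAs that are not on the blood cell lists, and the part of blood in their changes was not tested. The pair miR-101a and miR-101b and the pair miR-92a and miR-25 each share a seed.
miR-6329: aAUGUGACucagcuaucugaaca
miR-423-5p: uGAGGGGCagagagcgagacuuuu
miR-148b-3p: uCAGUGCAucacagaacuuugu
miR-101a-3p: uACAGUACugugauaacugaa
miR-101b-3p: uACAGUACugugauagcugaa
miR-3590-3p: uAGCACAAugugaaaagagcuc
miR-185-5p: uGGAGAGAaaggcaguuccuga
miR-1306-5p: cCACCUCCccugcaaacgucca
miR-92a-3p: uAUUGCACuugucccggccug
miR-25-3p: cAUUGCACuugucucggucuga
miR-193b-3p: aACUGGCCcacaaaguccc
miR-30a-5p: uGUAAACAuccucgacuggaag
miR-26a-5p: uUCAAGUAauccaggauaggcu
let-7f-5p: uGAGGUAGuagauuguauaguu
miR-542-3p: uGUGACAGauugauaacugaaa

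The next set holds the lower microRNAs of blood cells.
miR-144-5p: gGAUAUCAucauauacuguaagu
miR-144-3p: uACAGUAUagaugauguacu
miR-451-5p: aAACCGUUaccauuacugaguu
miR-451-3p: aUGGUAAUgguucucuugcugcu
miR-142-5p: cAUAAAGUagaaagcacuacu

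The muscle microRNAs differ outside the seed.
miR-206-3p: uGGAAUGUaaggaagugugugg
miR-1-3p: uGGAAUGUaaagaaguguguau
miR-1b: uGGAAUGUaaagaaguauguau

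Between miR-101a-3p and miR-101b-3p the only difference was A16G, counted from the 5′ end, outside the seed. From miR-1-3p to miR-1b it was G17A, and from miR-1-3p to miR-206-3p there were 3 differences, A11G, A21G and U22G. The miR-144-3p seed differed from that of the miR-101 pair at its last base, C8U. Counts of reads that differ by 1 base can be split or shared between such members, and how the authors assigned them is not given in the sources used here. Of the 41 microRNAs described next, 38 had a mature sequence in RefSeq, and miR-301a-3p, miR-486 and miR-674-3p are given by name.

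Of 483 microRNAs tested, 41 (8.49%) differed between the 14 DMO-exposed and 7 NC samples at an adjusted p under 0.05 by edgeR's quasi-likelihood test with Benjamini-Hochberg adjustment. Of these, 11 (2.28%) were higher and 30 (6.21%) were lower in the DMO-exposed myocardium, a balance that depended on scaling, since 46 were higher and 7 lower when library totals alone set the scale. The balance also depended on NC replicate 2, without which 24 were higher and 32 lower. The study's own threshold for a DE-microRNA (fold change of 2 or more, or 0.5 or less, with an unadjusted p under 0.05) was met by 25 (5.18%), 8 upregulated (1.66%) and 17 downregulated (3.52%). The 11 higher microRNAs had log2 fold changes of 0.50 to 1.26, and the 30 lower ones of -2.72 to -0.43, with a median over all 483 of -0.04. The groups did not overlap for 1 microRNA, miR-218a-5p (0.207% of those tested). All 14 DMO-exposed samples lay above the NC median for 16 microRNAs tested (3.31%), 8 of them among the 11, and below it for 26 (5.38%), 19 of them among the 30.

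**Figure D1:**
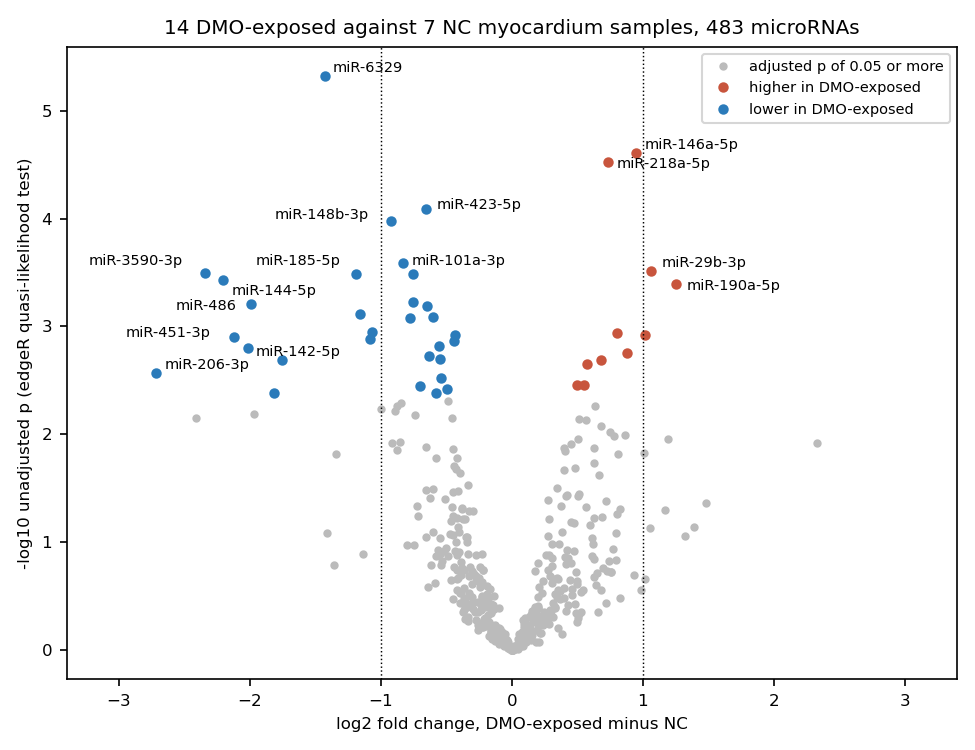
Log2 fold change (DMO-exposed minus NC) on the x axis against -log10 of the unadjusted p on the y axis for 483 microRNAs, 1 point each. Red points (11) were higher and blue points (30) lower at an adjusted p under 0.05, and dotted lines mark a log2 fold change of 1 and -1. Of the coloured points, 3 red and 13 blue lie beyond the dotted lines.

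The called microRNAs did not all rest equally on each sample. With each of the 21 samples left out in turn, 10 of the 41 passed in every fit. These were miR-146a-5p, miR-218a-5p, miR-29b-3p and miR-190a-5p among the higher, and miR-6329, miR-423-5p, miR-148b-3p, miR-101a-3p, miR-144-5p and miR-3590-3p among the lower. The count of called microRNAs fell to 15 without NC replicate 1, 18 without NC replicate 3, 24 without NC replicate 5 and 26 without NC replicate 4, and was 56 without NC replicate 2. Without NC replicate 2, 34 of the 41 remained and 22 others passed. No called microRNA changed sign in any of these fits. Among the other 7 higher microRNAs, the call was lost without any 1 of 10 to 15 samples for miR-497-5p, miR-708-5p, miR-125a-5p, miR-130a-3p and miR-126a-3p, and without NC replicate 1, 3, 4 or 5 for miR-466c-5p and miR-301a-3p. Among the lower ones it was lost without NC replicate 1 for miR-185-5p, miR-193b-3p, miR-1306-5p and miR-486, and without NC replicate 3 for miR-101b-3p and miR-125b-2-3p. It was lost without NC replicate 1 or 3 for miR-92a-3p and miR-106b-3p, and without NC replicate 1, 3 or 7 for miR-451-3p and miR-3473. For miR-142-5p the call was lost without NC replicate 1, 3 or 7 or VSD replicate 5, and for miR-30a-5p without NC replicate 3 or VSD replicate 4 or 5. The other 12 lost it without any 1 of 6 to 18 samples.

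TMM assumes that most microRNAs are unchanged, and its factors were higher in the DMO-exposed samples by 0.34 on the log2 scale (exact two-sided permutation test, p = 0.00433, adjusted p = 0.00867 over 2 values), whereas total counts differed by -0.04 (p = 0.885, adjusted p = 0.885). With library totals alone as the scale, the median of all 483 microRNAs moved from -0.04 to 0.26, and 53 passed. The 41 microRNAs kept their sign on that scale and 18 of them still passed, including all 11 of the higher and 7 of the lower ones. Levels below are TMM-scaled. Unless another contrast is named, a value with an SE is a log2 fold change, DMO-exposed minus NC, and an adjusted p is that of edgeR over all 483.

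Among the higher microRNAs, miR-146a-5p had the lowest p. It is a brake on innate immune signalling that targets the adaptors Irak1 and Traf6. Its level ran from 179.6 to 310.3 CPM in the NC samples (median 218) and from 293 to 666 CPM in the DMO-exposed samples (median 462). In 13 of the 14 exposed samples it was above every NC sample. The means were 233 ± 56.4 CPM in the NC samples and 449.8 ± 104 CPM in the DMO-exposed samples (SD, n = 7 and n = 14), and the log2 fold change was 0.95 (SE 0.18, adjusted p = 0.00478). The other arm, miR-146a-3p, had 0.63 (SE 0.42, adjusted p = 0.418), and miR-146b-5p, which has the same seed, had -0.42 (SE 0.17, adjusted p = 0.128).

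miR-218a-5p comes from hairpins inside Slit2 (chr14:66922413-66922433, - strand) and Slit3 (chr10:20572547-20572567, + strand), genes of secreted guidance ligands, and is known to target their Robo receptors. It was abundant, from 2536 to 4239.8 CPM in the NC samples (median 3748) and from 4309 to 7701 CPM in the DMO-exposed samples (median 6044), and each of the 14 exposed samples lay above each NC sample. Its log2 fold change was 0.74 (SE 0.14, adjusted p = 0.00478). The change was 0.61 in the VSD group and 0.88 in the non-VSD group, each against the same NC samples.

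miR-29b-3p belongs to the family that lowers collagens and other matrix genes. It was scarce in these hearts, with 170 reads over the NC samples and 836 over the DMO-exposed samples, and ran from 1.91 to 5.46 CPM in the NC samples (median 4.34) and from 4.42 to 13.8 CPM in the DMO-exposed samples (median 7.55). All 14 exposed samples lay above the NC median, 11 of them above every NC sample, and the log2 fold change was 1.06 (SE 0.25, adjusted p = 0.0157). Its family members with the same seed had smaller values that did not pass, 0.31 (SE 0.20) for miR-29a-3p and 0.51 (SE 0.23) for miR-29c-3p. miR-190a-5p lies in the talin gene Tln2 (chr8:76732228-76732249, - strand). It ran from 10.02 to 37.8 CPM in the NC samples (median 15.9) and from 20.2 to 77.04 CPM in the DMO-exposed samples (median 48.9), had the highest fold change of the 11, 1.26 (SE 0.30, adjusted p = 0.0163), and was above every NC sample in 9 of the 14.

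The vascular microRNA miR-126a-3p, from an intron of the endothelial gene Egfl7 and needed for vessel integrity, ran from 10151 to 22439.6 CPM in the NC samples (median 13635) and from 13930.1 to 29523 CPM in the DMO-exposed samples (median 19303). The groups overlapped, since NC replicate 3 lay at 22439.6 CPM and the other 6 NC samples were at most 13986 CPM. Its log2 fold change was 0.55 (SE 0.17, adjusted p = 0.0453), and the call was lost when any 1 of 15 samples was left out. The other arm, miR-126a-5p, had 0.06 (SE 0.22, adjusted p = 0.909).

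miR-130a-3p, which is known to repress the heart regulator Zfpm2, and its family member miR-301a-3p were both higher. The log2 fold changes were 0.68 (SE 0.20, adjusted p = 0.031) and 1.02 (SE 0.28, adjusted p = 0.0264). miR-130a-3p ran from 63.9 to 158 CPM in the NC samples (median 97.01) and from 95.2 to 240.2 CPM in the DMO-exposed samples (median 169.8), and miR-301a-3p from 21.9 to 76.7 CPM in the NC samples (median 43.00) and from 43.7 to 194 CPM in the DMO-exposed samples (median 88.6). Of the 8 tested members of the miR-130 and miR-301 family, 2 were called higher and 0 lower, with a family median of 0.34, against 2.28% of all microRNAs called higher and a median of -0.04.

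miR-497-5p has the seed of miR-15 and miR-16, which restrain the cell cycle. It ran from 7.90 to 23.05 CPM in the NC samples (median 8.77) and from 14.1 to 41.4 CPM in the DMO-exposed samples (median 19.3), with a log2 fold change of 0.88 (SE 0.25, adjusted p = 0.03). NC replicate 2 held the highest NC level. Without it the fold change was 1.24 (SE 0.24, adjusted p = 0.00282), and miR-195-5p, the neighbour of miR-497-5p on the same transcript and of the same seed, went from 0.63 (adjusted p = 0.257) to 1.22 (SE 0.28, adjusted p = 0.0077). Leaving out this control raised both values and was no separate check of them. Of the 11 tested members of the miR-15 seed family, 1 was called, or 2 without NC replicate 2.

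Of the remaining higher microRNAs, miR-466c-5p comes from a large block of repeated hairpins in Sfmbt2, and near-identical copies there make its count uncertain. Its log2 fold change was 0.81 (SE 0.22, adjusted p = 0.0264). miR-708-5p, from the teneurin gene Tenm4, had 0.57 (SE 0.17, adjusted p = 0.0328). miR-125a-5p, a vertebrate relative of the timing microRNA lin-4, had 0.50 (SE 0.15, adjusted p = 0.0453). The NC samples of miR-125a-5p were close together, 1465 to 1709 CPM, and 11 of the 14 exposed samples were above all of them, up to 3237 CPM. The microRNAs let-7e and miR-99b, cut from the same transcript as miR-125a, had values of -0.10 (SE 0.12) for let-7e-5p and -0.22 (SE 0.16) for miR-99b-5p.

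**Figure D2:**
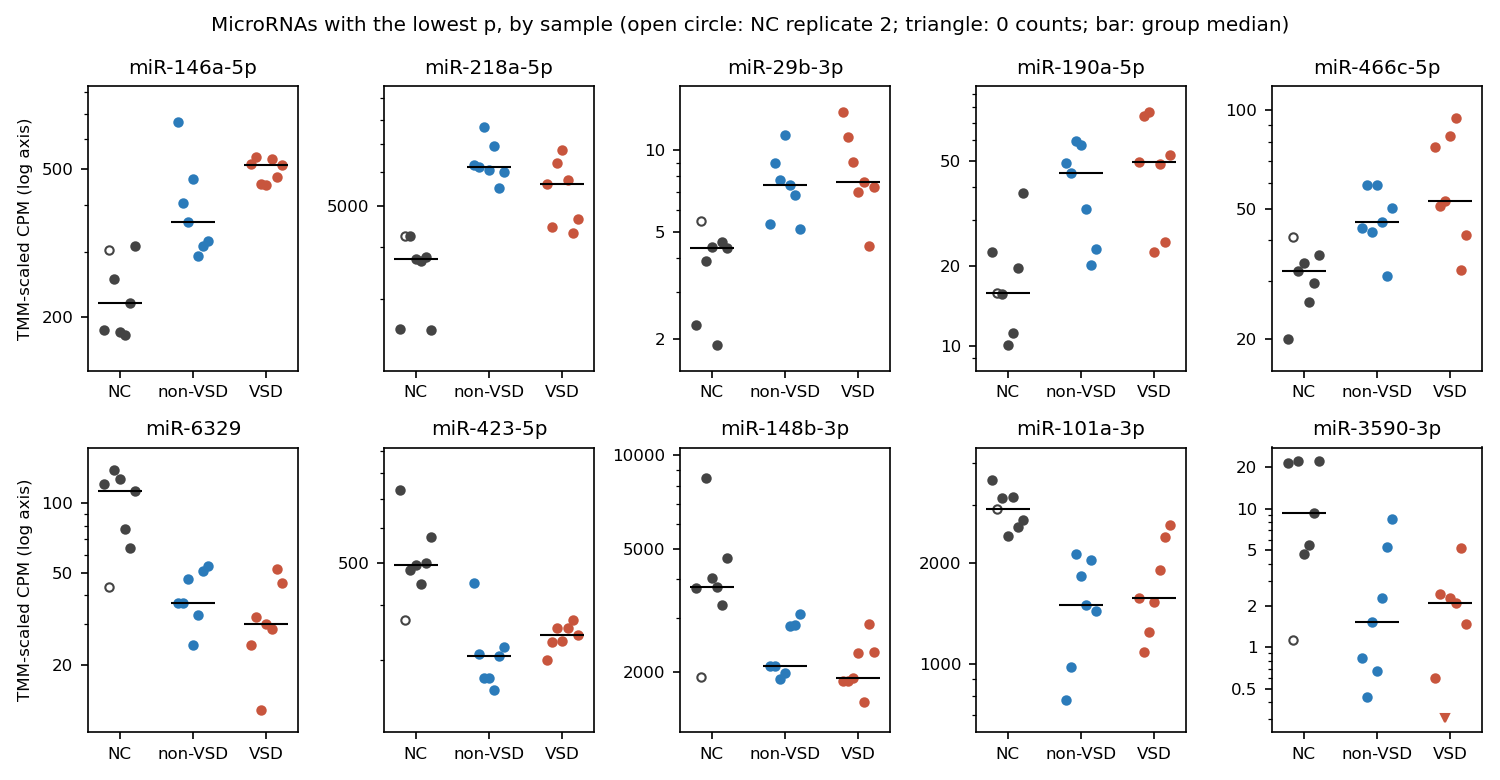
TMM-scaled CPM on a log axis by sample (7 NC, 7 non-VSD, 7 VSD) for the 5 higher (top) and 5 lower (bottom) microRNAs of lowest p, with a bar at the group median, an open circle for NC replicate 2 and a triangle for a count of 0. The groups do not overlap for miR-218a-5p, and for miR-6329, miR-423-5p, miR-148b-3p and miR-3590-3p the open circle lies within the range of the DMO-exposed samples.

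Among the lower microRNAs, miR-6329 had the lowest p of all 483. It lies in the span of the radixin gene Rdx (chr8:61334292-61334314, - strand). It ran from 43.5 to 139 CPM in the NC samples (median 113) and from 12.8 to 53.7 CPM in the DMO-exposed samples (median 34.9). NC replicate 2 was the lowest NC sample, and all other NC samples lay above all 14 exposed ones. The means were 97.9 ± 36.2 CPM in the NC samples and 36.2 ± 12.2 CPM in the DMO-exposed samples (SD, n = 7 and n = 14), with a log2 fold change of -1.43 (SE 0.24, adjusted p = 0.0023), and without NC replicate 2 it was -1.48 (SE 0.23, adjusted p = 0.000676). Leaving out the lowest control was no separate check.

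miR-423-5p, known as a circulating marker of heart failure, ran from 369.7 to 732 CPM in the NC samples (median 494) and from 256 to 449 CPM in the DMO-exposed samples (median 326), and 12 of the 14 exposed samples were below every NC sample. Its log2 fold change was -0.65 (SE 0.14, adjusted p = 0.00994). miR-148b-3p, of the miR-148 and miR-152 family, ran from 1933 to 8486 CPM in the NC samples (median 3759) and from 1602 to 3093 CPM in the DMO-exposed samples (median 2096), with -0.92 (SE 0.20, adjusted p = 0.0102). NC replicate 3 was far above the other NC samples of miR-148b-3p, and without it the value was -0.65 and still passed. Of its seed family, miR-148a-3p had -0.38 (SE 0.19) and miR-152-3p 0.00 (SE 0.16), and neither passed.

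Both members of the miR-101 pair, known to lower the Polycomb methyltransferase Ezh2, were lower although they lie on different chromosomes, miR-101a at chr5:121081691-121081711, - strand and miR-101b in Rcl1 at chr1:236273982-236274002, + strand. miR-101a-3p ran from 2418 to 3568 CPM in the NC samples (median 2915) and from 777 to 2602 CPM in the DMO-exposed samples (median 1553), and 13 of the 14 exposed samples were below every NC sample. Its log2 fold change was -0.83 (SE 0.19, adjusted p = 0.0157). miR-101b-3p had -0.75 (SE 0.18, adjusted p = 0.0157), with 12 of the 14 below every NC sample. Reads of the pair may be shared, since the mature sequences differ by 1 base.

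MicroRNAs of red blood cells made up the lower group with the widest changes. All 5 tested members of that list were called lower, with a median log2 fold change of -1.99, against 8.49% of all microRNAs called in either direction and a median of -0.04. miR-144 and miR-451 are cut from 1 transcript (miR-144-5p at chr10:63459409-63459431, + strand, miR-451-5p at chr10:63459585-63459606, + strand) that the red cell factor Gata1 switches on, and miR-486 is abundant in red cells and in muscle. The summed level of the list was 2653 to 91157 CPM in the NC samples. NC replicate 2 was the lowest at 2653 CPM and the other NC samples held at least 18100.5 CPM. In the exposed samples the sum was 3255 to 33989 CPM.

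miR-486 ran from 837 to 25502 CPM in the NC samples (median 11355) and from 610.3 to 10174 CPM in the DMO-exposed samples (median 2248), with a log2 fold change of -1.99 (SE 0.50, adjusted p = 0.0208) and -2.13 (SE 0.45, adjusted p = 0.00492) without NC replicate 2. That control held the lowest NC level of miR-486, so leaving it out was no separate check. miR-144-5p had -2.20 (SE 0.53, adjusted p = 0.0163), miR-144-3p -1.82 (SE 0.57, adjusted p = 0.0492), miR-451-3p -2.12 (SE 0.58, adjusted p = 0.0264) and miR-451-5p -1.75 (SE 0.50, adjusted p = 0.031). Limma trend called 3 of the 5, with adjusted p-values of 0.0623 for miR-144-3p and 0.116 for miR-451-5p. By edgeR the call was lost without any 1 of 16 samples for miR-144-3p and any 1 of 8 for miR-451-5p. The fold change of miR-144-3p was -2.62 in the VSD group and -1.25 in the non-VSD group, and the difference between those groups was -1.31 (SE 0.65, unadjusted p = 0.0574). Less blood in a heart and less of these RNAs per blood cell cannot be told apart in bulk tissue.

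Of the white blood cell list (miR-142, miR-223, miR-150, miR-155 and miR-511), 1 of 8 tested members was called, miR-142-5p, and the list median was -0.36, or -0.19 without NC replicate 2. miR-142-5p, which marks cells of the blood lineage, had -2.02 (SE 0.56, adjusted p = 0.0282). Its other arm, miR-142-3p, had -1.34 (SE 0.51, adjusted p = 0.102), and without NC replicate 2 it passed at -1.47 (SE 0.47, adjusted p = 0.0481). That control held the lowest NC sum of the list, so leaving it out was no separate check. The sums of the white blood cell list were 491 to 3863 CPM in the NC samples and 509 to 2138 CPM in the exposed ones. Each red blood cell arm had reads in all 21 samples, and of the white blood cell arms miR-155-3p was at 0 in 2 samples and miR-511-5p in 1. Red cell sums, which moved with exposure, were lowest in NC replicate 2, where miR-6329, miR-148b-3p, miR-185-5p and miR-3590-3p also had their lowest NC level, and the part of blood in the changes of those microRNAs was not tested.

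miR-206-3p, the skeletal muscle member of the miR-1 seed family, had the largest fold change of the called microRNAs, -2.72 (SE 0.81, adjusted p = 0.0381), but not a shift of the whole group. NC replicates 6 and 4 held 3249 and 1659 CPM, and the other 5 NC samples between 24.9 and 151 CPM. The exposed samples ran from 24.1 to 369.7 CPM, and 9 of the 14 were above the NC median. Without NC replicate 6 the value was -1.51, and the call was lost without any 1 of 10 samples, those 2 NC samples among them. It was also lost with limma, at an adjusted p of 0.604 by limma trend and 0.593 by limma voom with quality weights, while DESeq2 gave 0.00592. miR-133b-3p, next to it in the genome, had -0.53 (SE 0.35).

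The heart muscle microRNAs with the same seed were among the most abundant of the samples and did not pass. miR-1-3p ran from 2422 to 80544 CPM in the NC samples (median 26496) and from 2889.8 to 34362 CPM in the DMO-exposed samples (median 21421), with -0.75 (SE 0.44, adjusted p = 0.359), and miR-1b from 9230.0 to 145886 CPM in the NC samples (median 62611) and from 8892 to 66178 CPM in the DMO-exposed samples (median 46290.1), with -0.72 (SE 0.36, adjusted p = 0.255). NC replicate 2 held the lowest NC level of both and NC replicate 3 the highest. Without NC replicate 3 the values were -0.35 for miR-1-3p and -0.42 for miR-1b. Against NC the change of miR-1-3p was -1.18 in the VSD group and -0.38 in the non-VSD group, and the difference between those groups was -0.78 (SE 0.51, unadjusted p = 0.145). Over the 6 tested cardiac and skeletal muscle microRNAs the median was -0.62 with 1 call, and over the 6 microRNAs encoded in myosin genes it was 0.13, or 0.04 without NC replicate 2, with 0 calls by edgeR or DESeq2 and 0 at an unadjusted p under 0.05.

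miR-185-5p and miR-1306-5p lie on the same stretch of chromosome 11 in the genes Tango2 (chr11:96169041-96169062, + strand) and Dgcr8 (chr11:96213968-96213989, + strand). Their human counterparts lie in the DiGeorge syndrome interval, whose deletion causes outflow tract and septal defects, and Dgcr8 is a subunit of the enzyme that cuts hairpins. miR-185-5p ran from 202 to 1427 CPM in the NC samples (median 807) and from 175 to 688 CPM in the DMO-exposed samples (median 342), and had -1.19 (SE 0.28, adjusted p = 0.0157). miR-1306-5p was scarce, 24.5 ± 11.8 CPM in the NC samples and 14.3 ± 2.91 CPM in the DMO-exposed samples (SD), and had -0.78 (SE 0.20, adjusted p = 0.0224). Both calls were lost without NC replicate 1. The other arm of miR-1306 had 0.03 (SE 0.30).

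Of 21 tested members of the miR-17-92 cluster and its paralogs, which drive proliferation, 3 were called lower and 0 higher, against 6.21% lower and 2.28% higher of all microRNAs. miR-92a-3p and miR-25-3p share a seed and had -0.76 (SE 0.19, adjusted p = 0.0208) and -0.70 (SE 0.22, adjusted p = 0.0456), and miR-106b-3p, from the Mcm7 intron that also holds miR-25, had -1.07 (SE 0.29, adjusted p = 0.0264). miR-92a-3p ran from 1677 to 4155 CPM in the NC samples (median 2713) and from 971 to 2615 CPM in the DMO-exposed samples (median 1705). Other members of the same transcripts were not called. miR-17-5p had 0.16 (SE 0.20), miR-18a-5p -0.05 (SE 0.21) and miR-93-5p -0.45 (SE 0.17), none of which passed. The median of the 21 was -0.06, or 0.27 with library totals as the scale, where that of all microRNAs was 0.26. With NC replicate 2 left out miR-19b-1-5p also passed, at 1.48 (SE 0.47, adjusted p = 0.0444).

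Several of the most abundant microRNAs fell by smaller amounts. miR-30a-5p, of the family that is rich in cardiomyocytes, ran from 52712 to 68805 CPM in the NC samples (median 57946) and from 25082 to 55237 CPM in the DMO-exposed samples (median 39713), with -0.60 (SE 0.16, adjusted p = 0.0224). miR-26a-5p had -0.44 (SE 0.12, adjusted p = 0.0264), and let-7f-5p, of the let-7 family that promotes differentiation, had -0.43 (SE 0.12, adjusted p = 0.0264). All 14 exposed samples were below the NC median for each of these 3. Of 21 let-7 arms tested 1 was called, with a median of -0.10, and of 11 miR-30 arms 2 were called, with a median of -0.23. These 3 calls were all lower, as were 6.21% of all microRNAs, whose median was -0.04. With library totals as the scale these 2 medians were 0.21 and 0.11, against 0.26 over all microRNAs, and let-7f-5p, miR-26a-5p and miR-30a-5p had -0.09, -0.08 and -0.27 and did not pass. The let-7 median was 0.05 with 0 called when NC replicate 2 was left out, and let-7f-5p then had -0.34 (SE 0.12, adjusted p = 0.0709). The miR-30 median was then -0.19 with 1 called, against 0.09 over all microRNAs.

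The remaining lower microRNAs were miR-3590-3p, miR-193b-3p, miR-3473, miR-125b-2-3p, miR-340-5p, miR-181a-1-3p, miR-30c-2-3p, miR-542-3p, miR-674-3p and miR-3559-5p. miR-3590-3p was scarce, with 454 reads over the NC samples and 231 over the DMO-exposed samples and a count of 0 in VSD replicate 3, the shallowest library, where 0 allows up to 3 counts. Its log2 fold change was -2.34 (SE 0.55, adjusted p = 0.0157). Its hairpin lies on the strand opposite to that of miR-130a, which was higher, and whether the counting used strand is not given in the sources used here. RefSeq also places other hairpins opposite those of miR-29b-3p, miR-126a-3p, miR-181a-1-3p, let-7f-5p and, in Slit2, miR-218a-5p. miR-193b-3p had -1.16 (SE 0.30, adjusted p = 0.0224), lost without NC replicate 1, and miR-3473 -1.08 (SE 0.30, adjusted p = 0.0264). The other 7 had log2 fold changes of -0.65 to -0.50. Without NC replicate 2 the calls of miR-340-5p, miR-542-3p, miR-30c-2-3p, miR-3559-5p and miR-674-3p were lost. Their adjusted p-values were then 0.0755, 0.0626, 0.0626, 0.0732 and 0.107. The call of miR-181a-1-3p was lost as well (adjusted p = 0.139).

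**Figure D3:**
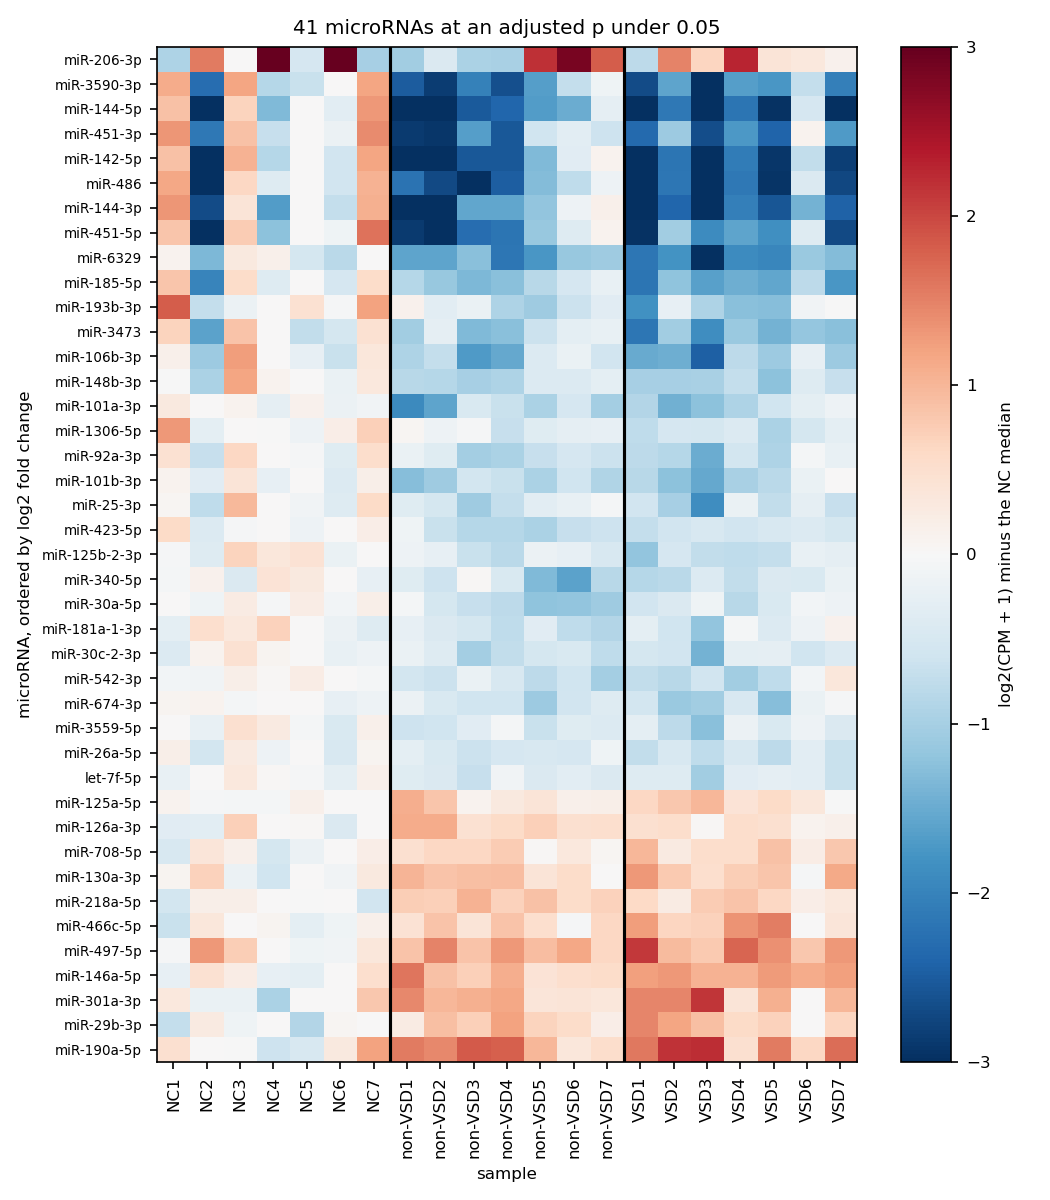
Log2(CPM + 1) minus the NC median for the 41 called microRNAs (rows, ordered by log2 fold change) in the 21 samples (columns, black lines between NC, non-VSD and VSD), blue lower and red higher, with the colour scale ending at 3 and -3. The blood microRNAs are dark blue in NC replicate 2 as well as in most exposed samples, and the high values of miR-206-3p in the NC group are those of replicates 4 and 6.

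The exposed samples were also compared with each other. Between the VSD and non-VSD groups edgeR called 0 of 483 microRNAs at an adjusted p under 0.05, with 56 (11.6%) at an unadjusted p under 0.05, and the lowest adjusted p was 0.426. DESeq2 called 0 of them (69 unadjusted). Among the 41 called for exposure, 3 had an unadjusted p under 0.05 between the groups. miR-30a-5p was higher in the VSD than in the non-VSD group by a log2 difference of 0.38 (SE 0.17, unadjusted p = 0.035), and miR-126a-3p and miR-3473 were lower, with differences of -0.39 (SE 0.18, unadjusted p = 0.0398) and -0.75 (SE 0.32, unadjusted p = 0.0308). For miR-146a-5p the difference was 0.30 (SE 0.19, unadjusted p = 0.133), for miR-218a-5p -0.24 (SE 0.15, unadjusted p = 0.139), for miR-6329 -0.32 (SE 0.29, unadjusted p = 0.268) and for miR-101a-3p 0.20 (SE 0.23, unadjusted p = 0.381). With only 1 exposed group against NC, 2 microRNAs passed for the VSD group and 1 for the non-VSD group, each from 7 exposed samples.

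miR-7b had unlike levels in the pooled groups. It ran from 7.21 to 79.1 CPM in the NC samples, from 3.08 to 63.6 CPM in the non-VSD samples and from 26.4 to 355 CPM in the VSD samples. The pooled log2 fold change was 1.32 (SE 0.74, adjusted p = 0.32), and the change was 2.04 in the VSD group and -0.18 in the non-VSD group. VSD minus non-VSD was 2.24 (SE 0.71, unadjusted p = 0.00446), which did not pass adjustment. VSD replicate 3, the shallowest library, held the highest level, and without it the pooled value was 0.73. Of the other microRNAs that the results of the study name in myocardium, miR-96-5p of sensory and epithelial cells had 1.48 (SE 0.69, adjusted p = 0.215), and miR-293-5p of early embryonic cells -0.80 (SE 0.47, adjusted p = 0.359). miR-3580-3p and miR-497-3p were under the filter. miR-497-3p had 0 reads in all 7 NC samples and 1 to 4 reads in 7 of the 14 exposed ones.

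Lists of other cells and programmes are described by counts and medians. In the epithelial list (the miR-200 family, miR-203, miR-205 and miR-375) 0 of 12 tested members were called by edgeR and 0 had an unadjusted p under 0.05. DESeq2 called 1, miR-375-3p (adjusted p = 0.0309), which had an unadjusted p of 0.916 by edgeR. Limma voom with quality weights called 1 other, miR-200c-3p (adjusted p = 0.0445). The median was 0.59, or 1.95 without NC replicate 2. That control held the highest NC sum of the list, so leaving it out raised the median and was no separate check. The summed level of the list was 339 to 6857 CPM in the non-VSD samples and 2079 to 15687 CPM in the VSD samples. In the NC group replicates 1, 3 and 7 had 281, 283 and 264 CPM and replicate 2 had 14717 CPM. The part of other tissue in the samples was not tested.

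Among lists of signalling and development, the miR-132 and miR-212 cluster, which follows Creb activity, had 0 of 4 called and a median of 0.71. The fibrosis-linked list had 1 of 7 called, miR-29b-3p, and a median of 0.46. The Dlk1-Dio3 imprinted cluster, the largest list, had 0 of 75 called and a median of -0.03, near that of all microRNAs, or 0.19 with library totals as the scale. Without NC replicate 2, miR-136-5p, miR-376a-3p and miR-376b-5p of that cluster were called higher and its median was 0.32, against 0.09 over all microRNAs. An X-linked cluster known from testis had 0 of 7 called and a median of -1.36. DESeq2 called miR-743b-5p of it lower, and without NC replicate 2 edgeR called miR-743b-5p, at -2.10 (SE 0.64, adjusted p = 0.0339), and miR-871-3p, at -2.57 (SE 0.78, adjusted p = 0.0339). That cluster was scarce. Its 21 listed members summed to 3.29 to 97.6 CPM in the NC samples and 8.50 to 68.8 CPM in the exposed ones. NC replicate 2 held the lowest sum. The medians of the sums were 37.3 CPM in the NC, 34.1 CPM in the non-VSD and 13.8 CPM in the VSD samples. miR-210, the classical hypoxia microRNA, had arms at -0.03 and -0.18. Over the 18 lists with 0 called members, which hold 166 tested microRNAs, 24 had an unadjusted p under 0.05 by edgeR. Over all 483 microRNAs 104 (21.5%) did. Of the 166 in these lists, DESeq2 called 8, limma voom with quality weights 13 and limma trend 0. The counts of these fits over all microRNAs are given in the closing section on processing. The other lists with 0 called members were smooth muscle (4 tested), mesenchymal (3), miR-183 cluster (4), Hox-cluster (4), ciliated cell (6), liver and gut (3), neural (15), miR-135 (2), miR-34a (1), miR-290 (6), miR-23, miR-27 and miR-24 (9) and miR-221 and miR-222 (3), with medians from -0.26 (ciliated cell) to 1.55 (miR-135). Without NC replicate 2 the ciliated cell median was 0.58, miR-135b-5p passed at 3.11 (SE 0.94) and miR-34a-5p at 0.89 (SE 0.29). Of the mesenchymal list miR-199a-3p then passed at 0.66 (SE 0.18, adjusted p = 0.0253), and of the neural list miR-7a-5p at -1.08 (SE 0.31, adjusted p = 0.0284). NC replicate 2 held the highest NC sum of the ciliated cell, mesenchymal, miR-135, miR-34a and Dlk1-Dio3 lists, 3701, 18091, 33.8, 106 and 45296 CPM. Leaving it out raised their values and was no separate check of them. It held the lowest NC sum of the neural list, 4155 CPM, and of the X-linked cluster. The lower values of miR-7a-5p, miR-743b-5p and miR-871-3p without it were no separate check either. The miR-135 list was scarce, with sums of 4.20 to 33.8 CPM in the NC samples and 4.68 to 114.5 CPM in the exposed ones. The endothelial (2 tested), miR-190 (2), miR-146 (4) and miR-181 (8) lists had 1 call each, and the miR-99, miR-100 and miR-125 family of 11 had 1 higher and 1 lower. Without NC replicate 2 the miR-181 call was miR-181d-5p, higher at 0.61 (SE 0.20, adjusted p = 0.0484), in place of miR-181a-1-3p.

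**Figure D4:**
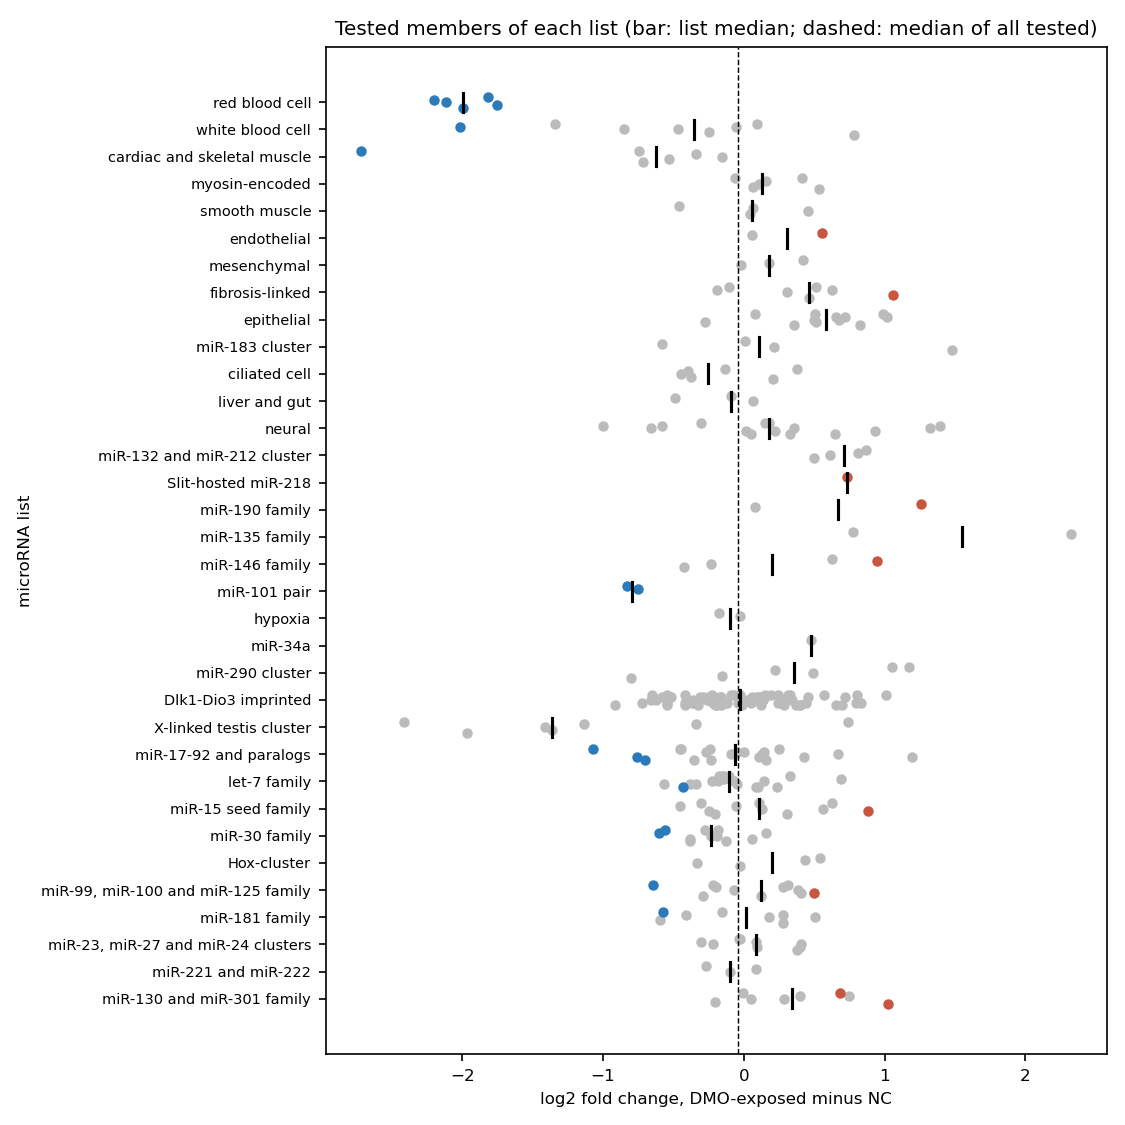
Log2 fold change (x axis) of the tested members of 34 microRNA lists (y axis), 1 point each, blue or red where lower or higher at an adjusted p under 0.05, with a black bar at the list median and a dashed line at the median of all 483. The 5 red blood cell points are all blue and lie between -2.20 and -1.75, and no point of the Dlk1-Dio3 list is coloured.

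The ratio of the 2 arms of a hairpin within a sample needs no scaling between libraries, and was compared for the 164 pairs of which both arms passed the filter. By an exact two-sided permutation test over the 116280 groupings of 21 samples, 25 pairs (15.2%) passed at an adjusted p under 0.05, 18 towards the 5p arm and 7 towards the 3p arm, and 46 had an unadjusted p under 0.05. The groups did not overlap for 1 pair (0.61%), miR-542 of the X chromosome. Its log2 ratio of 5p to 3p was -8.10 ± 0.274 in the NC and -7.02 ± 0.411 in the DMO-exposed samples (SD, n = 7 and n = 14), a difference of 1.07 (adjusted p = 0.00141), with p = 8.6e-06, the smallest that this exact permutation test can give. The highest NC ratio of miR-542, -7.626 in replicate 7, and the lowest exposed ratio, -7.624 in VSD replicate 6, nearly met. miR-542-3p was lower, -0.55 (SE 0.16, adjusted p = 0.031), and miR-542-5p had 0.51 (SE 0.17, adjusted p = 0.0671). Without NC replicate 2, miR-542-3p had -0.49 (SE 0.17, adjusted p = 0.0626) and miR-542-5p 0.62 (SE 0.18, adjusted p = 0.0299).

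The pair miR-125b-5p and miR-125b-2-3p moved by 0.91 (exact permutation p = 1.72e-05, adjusted p = 0.00141), with the ratio of 13 of the 14 exposed samples above every NC sample. miR-140, a cartilage and mesenchyme microRNA, moved by 1.14 (exact permutation p = 7.74e-05, adjusted p = 0.00259) towards its scarcer 5p arm, and miR-708 by 0.91 (exact permutation p = 8.60e-05, adjusted p = 0.00259). In the opposite direction, miR-142 moved by -0.95 (exact permutation p = 9.46e-05, adjusted p = 0.00259), miR-450a by -1.09 (exact permutation p = 0.000267, adjusted p = 0.00625) and miR-340 by -1.30 (exact permutation p = 0.000568, adjusted p = 0.00846) towards the 3p arm. Mature arms such as miR-125b-5p are also cut from another hairpin, so a ratio can mix sources. Of the 25 pairs, 21 moved towards the arm that was the lower of the pair over the 21 samples, as did 99 of all 164. Without NC replicate 2, 20 pairs passed, 19 of them shared.

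The called microRNAs can be read against these ratios. At least 1 arm was called in 25 of the 164 pairs. Both arms were called for miR-144 and miR-451, and in 11 of the other 23 pairs the arm that was not called had a value of the opposite sign, as in 77 of all 164 pairs. The ratio passed in 9 of the 25, pairs that share reads with the calls.

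**Figure D5:**
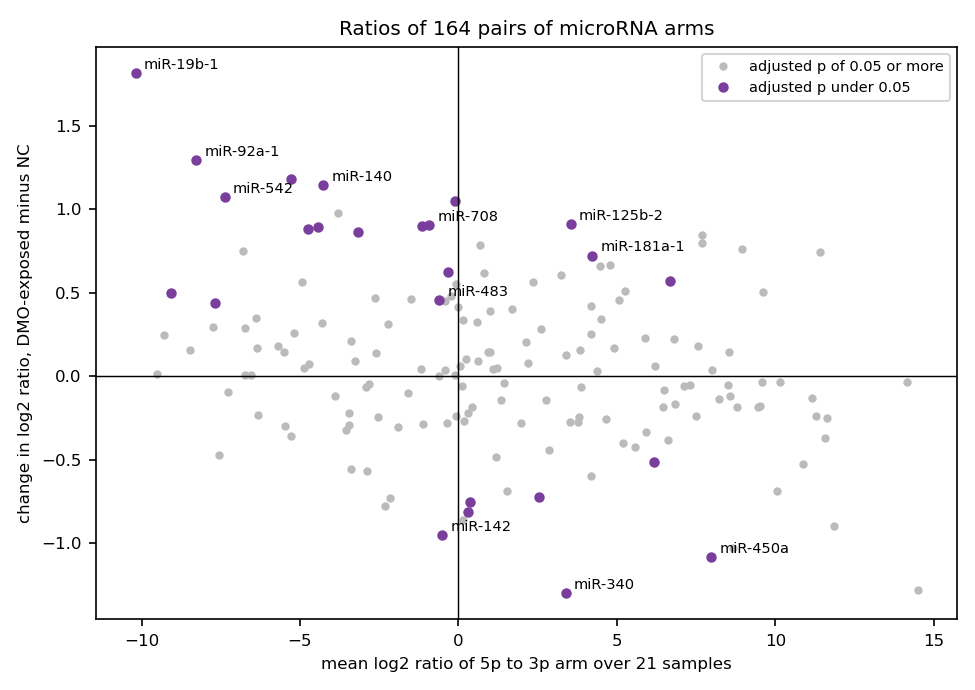
Change in the log2 ratio of 5p to 3p arm (y axis, DMO-exposed minus NC) against the mean log2 ratio over the 21 samples (x axis) for 164 pairs of arms, with the 25 pairs at an adjusted p under 0.05 in purple. In 21 of these 25 the ratio moved toward the arm with the lower mean count, and miR-542 is the pair without overlap between the groups, by a narrow margin.

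The called microRNAs lay at higher levels than most, with median levels of 133 CPM for the higher and 638 CPM for the lower ones against 58.0 CPM for all tested. In the top of 4 equal bins by mean level (from 441 CPM) 18 were lower and 3 higher, with a median log2 fold change of -0.19 over its 121 members. In the bottom bin there were 2 lower and 1 higher and the median was 0.01. More counts stand behind each value in the top bin, and the part of level in the calls was not tested. The median GC content was 40.9% for the 10 higher and 42.2% for the 28 lower microRNAs with a sequence, and 47.6% for the 445 tested ones. The 10 most abundant microRNAs took 60.5% to 71.6% of the reads in the NC samples.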

How the data were processed

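Small RNA libraries of 21 myocardium samples (7 NC, 7 non-VSD, 7 VSD) were made with the TruSeq Small RNA kit from RNA of wax blocks and sequenced on a HiSeq system. The authors base-called and quality-filtered the reads (bcl2fastq 2.19 in the submitters' processing notes) and deposited a raw count per mature microRNA and sample, which was used here. Aligner, annotation, genome build and strand handling are not given in the sources used here. The deposited tables also hold the authors' normalized values, fold changes and p-values, which were not used. The 7 NC columns were identical in both deposited tables and were counted once, and tables were joined by microRNA name.

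The quasi-likelihood test of edgeR 4.0.16 in R 4.3.3 (filterByExpr at a minimum count of 10 and total of 15, TMM scaling, glmQLFit and glmQLFTest) was run on all 14 DMO-exposed against 7 NC samples, with Benjamini-Hochberg adjustment over the 483 of 661 microRNAs that passed the filter. VSD was set against non-VSD in a model with 3 group means. Levels are means ± SD of TMM-scaled CPM. Single values and arm ratios (with 0.5 added to each count) were tested by exact two-sided permutation. The microRNAs named were the 12 of lowest p in each direction, those the study's results name in myocardium, and members and markers of 34 lists. Members and lists were chosen with earlier results of these data known, and others named in the text were chosen after their values were seen. Alternatives were DESeq2 1.42.0, limma 3.58.1, other scalings and filters, the replicate number as a block, 1 exposed group at a time and each sample left out in turn. Fits were tested on simulated data. Sequences and positions are RefSeq's (GRCr8), with 596 of 661 microRNAs matched by name. Plots were made with matplotlib 3.10.9 in Python 3.11.15. Intervals of counting error were not computed, and totals per library limit the precision of scarce microRNAs.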

Additional observations from a re-analysis of the deposited data

Results flagged for a closer look

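In 96 groups of 7 samples, 5 had a sample far from the others, by the gap to its nearest neighbour as a share of the whole range against Dixon's 95% critical value, which chance exceeds in about 1 of 20 groups. In the NC group, miR-126a-3p of replicate 3 was the highest (share 0.596), at 14.45 log2 CPM against 13.31 to 13.77 in the others. Replicate 2 of the NC group was the lowest for miR-486 (share 0.647), at 9.71 log2 CPM against 12.90 to 14.64, and for miR-1b (share 0.591), at 13.17 against 15.53 to 17.15. In the non-VSD group, miR-423-5p of replicate 1 was the highest (share 0.595), at 8.81 log2 CPM against 8.004 to 8.332. In the VSD group, replicate 3 had the lowest total count (share 0.881), 20.69 on the log2 scale against 22.84 to 23.13.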

How the results depend on the processing

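The count of 41 microRNAs called for exposure became 65 with DESeq2, 75 with limma voom and quality weights, 23 with no filter on low counts, 2 with only the VSD samples as exposed and 1 with only the non-VSD samples, the last 2 from 7 exposed samples. The 25 DE-microRNAs became 40 with limma voom and quality weights, 43 with no filter and 14 with at least 10 counts in every sample. When 1 sample at a time was left out, the first count ran from 15 to 56 and the second from 18 to 57, the lowest of both without NC replicate 1 and the highest of both without NC replicate 2. With limma trend 34, robust dispersion 40, RLE 44 and at least 10 counts in every sample 44 passed. Between VSD and non-VSD the count was 0 in every fit by edgeR, DESeq2 and limma, with 56 unadjusted by edgeR, 69 by DESeq2 and 103 by limma voom. The log2 fold change of miR-7b was -0.18 with only the non-VSD samples as exposed, the reverse of the pooled 1.32. Over 30 named microRNAs, 546 of 630 values with a sample left out kept direction and side of the threshold, 78 lost the call, 6 gained it and 0 reversed, and of 357 other values 279 kept both, 73 lost the call, 4 gained it and 1 reversed. Causes of these changes were not tested.

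The replicate number was not used to pair the samples in the main fit. Of 21 pairs of the same number, 10 correlated above 0.1 (median -0.07), and 2 of 21 samples correlated best with their own number. These correlations cannot show whether samples share a litter. With the replicate number as a block, 7 microRNAs passed, 2 higher and 5 lower. Scarce microRNAs such as miR-29b-3p rest on few reads, and VSD replicate 3 is the shallowest library.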
